A study of Drosophila melanogaster with 4 samples.

Results

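The Hox complexes of Drosophila melanogaster are 2 clusters of homeodomain transcription factor genes on chromosome arm 3R. They were described here by the regions called as carrying histone H3 dimethylated at lysine 4 (H3K4me2) in third-instar larvae, the last larval stage. The members were all enriched regions on 3R overlapping 2450000 to 2850000, the Antennapedia complex, or 12450000 to 12820000, the bithorax complex, in FlyBase release 5 coordinates. There were 21 in replicate 1 of 1109 on 3R and 4752 in all, and 21 in replicate 2 of 1085 and 4701. The Antennapedia complex held 11 of them and the bithorax complex 10 in each list. The series had 4 samples, namely 2 H3K4me2 immunoprecipitates (antibody from Active Motif, per the labels) and 2 inputs, all from nuclei of wild-type Oregon-R larvae (Oregon-R-modENCODE). Each list gave the regions of one immunoprecipitate called against the input of the same replicate number. Only region lists were used, so read depth is unknown.

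Hox genes set the identity of body segments, and their order along the chromosome follows the order of the segments in which they act. Polycomb group proteins keep each Hox gene silent in the segments where it is off, and trithorax group proteins, among them methyltransferases of H3 lysine 4, maintain it where it is on. H3K4me2 is found at enhancers and promoters, both in working genes and in genes held ready. In the Release 6 gene table of RefSeq, used only for names and order, the Antennapedia complex runs lab, pb, Dfd, Scr, Antp. The gene lab (labial) acts in the head, pb (proboscipedia) in the mouthparts, Dfd (Deformed) in the jaw-forming head segments, Scr (Sex combs reduced) in the labial and anterior thoracic segments, and Antp (Antennapedia) in the thorax. Between lab and Antp the same table places 14 other protein-coding genes. They include the cuticle protein genes of the Ccp84A group, the Hox-derived embryonic patterning genes zen, zen2, bcd and ftz, and Ama, which encodes a secreted immunoglobulin protein. The bithorax complex runs Ubx (Ultrabithorax), which specifies the haltere segment, then abd-A (abdominal-A) and Abd-B (Abdominal-B), which specify the anterior and posterior abdomen. It holds 3 other protein-coding genes between Ubx and Abd-B in that table.

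Positions of these genes in release 5 were not used here, so no region below is assigned to a promoter or gene, and the names of the windows rest on the coordinates by which they were chosen. The sample is a mix of larval cells. A mark on few cells and a weak mark on many cannot be told apart. The labels do not state that the replicates were separate collections, and their spread may be technical only.

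Both complexes were sparsely marked. H3K4me2 regions covered 7.50% of the Antennapedia window in replicate 1 and 7.26% in replicate 2 (7.38% ± 0.169, SD, n = 2). They covered 11.2% and 11.1% of the bithorax window (11.1% ± 0.0892). The whole of 3R was covered to 17.8% and 17.3% (17.6% ± 0.334). The spread between replicates says nothing of how much positions vary along the arm, and no test between positions was run. The complexes were therefore set among all windows of their own length on 3R. Of 27506 windows of 400 kb started every 1 kb, 7.27% had a lower covered share than the Antennapedia complex, and their median was 15.8%. Of 27536 windows of 370 kb, 20.4% were lower than the bithorax complex, with a median of 15.8%. Neighbouring windows overlap, and windows overlapping the complexes were counted too, so these percentages are descriptions. Cut into separate tiles, 3R gave 6 of 69 tiles lower than the Antennapedia complex and 13 of 75 lower than the bithorax complex. Among windows of all 5 long arms, 11.8% and 25.2% were lower. When only regions scoring above their list's median were counted, 2.31% and 10.1% of the windows on 3R were lower.

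The value of the bithorax complex depended on the edges of the window. With 25 kb removed at each end, its covered share fell from 11.1% to 5.22%, and 3.76% of windows of that length on 3R were lower. The Antennapedia complex went from 7.38% to 7.65%, with 10.2% of windows lower. The order of the complexes turned with this trimming, from the bithorax complex as the more covered to the Antennapedia complex. Adjoining windows of the same length that shared no sequence with a complex were more densely marked than it. The windows before and after the Antennapedia complex were covered to 10.9% ± 0.128 and 19.6% ± 0.0509, and those before and after the bithorax complex to 22.0% ± 0.00612 and 15.9% ± 0.0803 (SD, n = 2). Windows that overlapped a complex in part were not all denser. Those begun near 2300 and 2550 kb were covered to 5.88% and 13.1%, and those near 12350 and 12550 kb to 8.62% and 18.7%. The lowest shares nearby were thus not those of the windows as chosen.

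**Figure D1:**
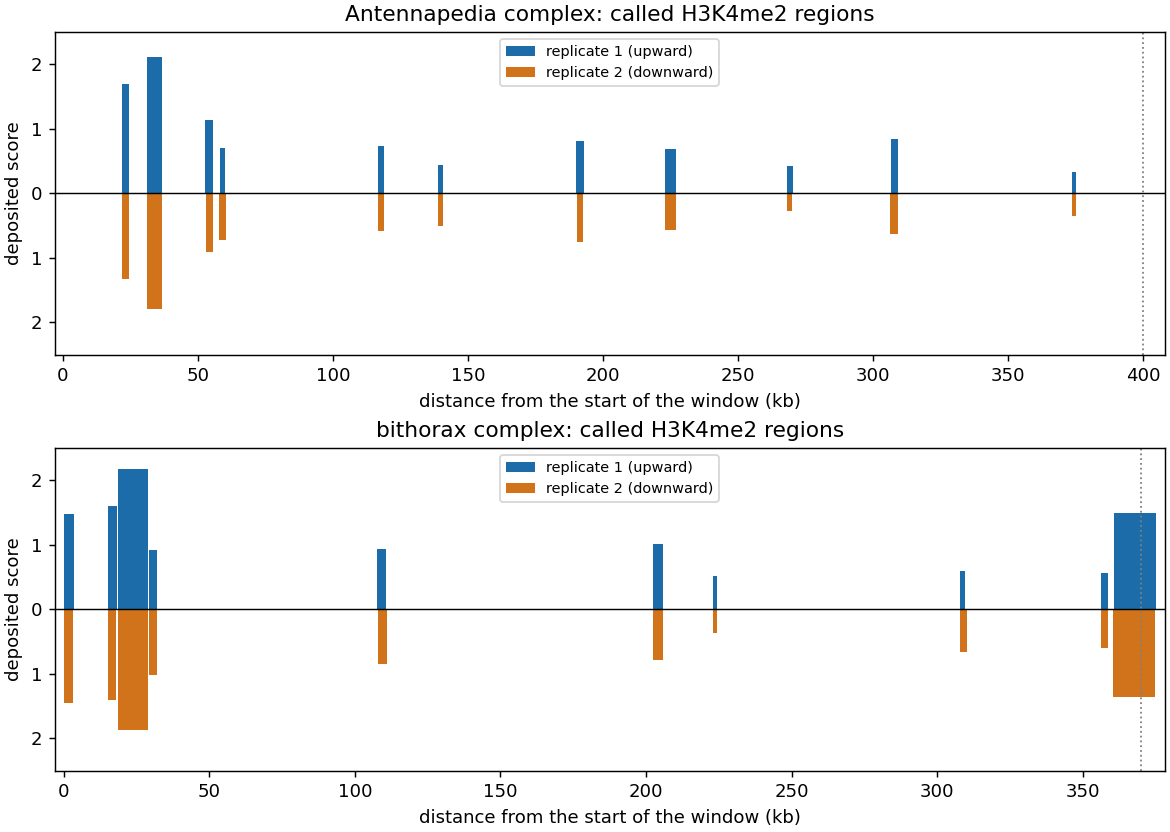
Position, length and deposited score of each called H3K4me2 region in the windows of the Antennapedia complex (top) and the bithorax complex (bottom). The x axis is the distance from the start of the window in kb, each bar spans 1 region, its height is the deposited score (replicate 1 upward, replicate 2 downward), and the dotted line is the end of the window. The 11 and 10 regions recur in both replicates, and the regions of 5 kb or more lie near the ends of the windows.

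In the Antennapedia complex the regions were narrow and scattered along the window. Those with the highest scores, the first to the third, lay at its lower-coordinate end. The first region, 3R 2471816 to 2474390 in replicate 1, was 2.58 kb long there and 2.45 kb in replicate 2, with deposited scores of 1.70 and 1.33. The second, 3R 2481327 to 2486637, was the only one of 5 kb or more, with 5.31 and 5.28 kb and scores of 2.11 and 1.79. It had the highest score of the complex in both replicates. The third and the fourth, 3R 2502733 to 2505642 and 3R 2508042 to 2510220, were a close pair, 2.40 kb apart in replicate 1 and 2.30 kb in replicate 2. The third scored 1.13 and 0.91 and the fourth scored 0.71 and 0.72. All 4 lay in the first 60.2 kb of the window.

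Beyond them, 7 regions followed over the remaining 339.8 kb, and the highest score among them was 0.85, above that of the fourth region. The fifth, 3R 2566691 to 2569042, scored 0.73 and 0.58, and the sixth, 3R 2588936 to 2590875, scored 0.45 and 0.50. The seventh, 3R 2640121 to 2642820, scored 0.81 and 0.76. The eighth, 3R 2673001 to 2676952, was the second longest of the complex with 3.95 and 3.99 kb, and yet scored only 0.69 and 0.57. The next was 3R 2718221 to 2720209, at 0.43 and 0.27. The tenth, 3R 2756557 to 2759189, scored 0.85 and 0.63. The last, 3R 2823776 to 2825238, was also the shortest of the complex, with 1.46 and 1.41 kb and scores of 0.33 and 0.35. In bins of 50 kb the covered share was highest in the first, 15.6% ± 0.233, and lowest in the last, 2.87% ± 0.0792 (SD, n = 2). In between it was 10.1%, 8.42%, 5.04%, 7.94%, 3.86% and 5.26%, in order, so it declined along the window with small reversals.

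The bithorax complex had its marked sequence at the 2 ends of the window, with isolated regions in between. At the lower-coordinate end 4 regions lay within 32.1 kb. The first, 3R 12450166 to 12453542, began 166 bp inside the window and scored 1.48 and 1.45. The second, 3R 12465154 to 12468235, scored 1.60 and 1.41. It was followed after 378 bp in replicate 1 and 493 bp in replicate 2 by a broad region, 3R 12468614 to 12478928, of 10.3 kb in each replicate, with the highest scores of the complex (2.18 and 1.87). The fourth, 3R 12479308 to 12481988, lay 379 bp beyond it in replicate 1 and 332 bp in replicate 2, and scored 0.92 and 1.01. Together these 4 regions gave the first 50 kb a covered share of 38.8% ± 0.226 (SD, n = 2), where the whole arm had 17.6%.

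At the other end lay the longest region of either complex, 3R 12810561 to 12824909, with 14.3 kb in each replicate and scores of 1.50 and 1.36. It ran 4.91 kb past the end of the window in replicate 1 and 4.72 kb in replicate 2. A region of 2.31 and 2.30 kb, 3R 12806124 to 12808436, preceded it and scored 0.56 and 0.59. Both ends were close to other marked sequence. The nearest region before the window ended 9.06 kb from it in replicate 1, and the nearest after it began 5.85 kb away. Around the Antennapedia window the nearest regions were 154 kb before it and 40.9 kb after it in the same replicate. In the Release 6 table the protein-coding neighbours of the bithorax Hox genes are modSP before Ubx and VhaM9.7-d after Abd-B, the latter a subunit of the vacuolar proton pump. Whether the broad regions at the ends belong to Hox genes or to such neighbours was not tested.

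The interior of the bithorax complex carried 4 regions on 324 kb, all under 4 kb. They were 3R 12557572 to 12560846 with scores of 0.94 and 0.84, 3R 12652265 to 12655860 with 1.01 and 0.78, 3R 12673110 to 12674467 with 0.52 and 0.36, and 3R 12757642 to 12759651 with 0.59 and 0.65. Between the 2 broad regions, a span of 332 kb singled out after its values were seen, 6 regions covered 4.58% ± 0.0252 of the sequence (SD, n = 2). Of the 8 bins of the window, 3 of 50 kb held no marked base in either replicate. On 3R as a whole, 132 of 558 tiles of 50 kb did so (23.7%). The Antennapedia complex had no such bin.

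**Figure D2:**
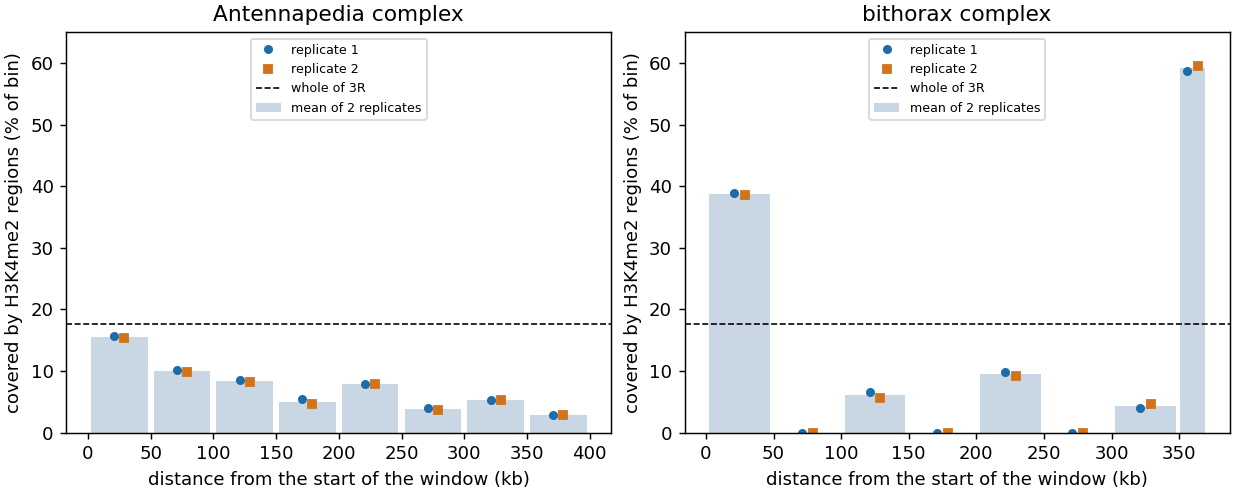
Share of sequence covered by H3K4me2 regions along each complex in bins of 50 kb, the last bin of the bithorax complex holding 20.0 kb. Bars are the mean of 2 replicates, circles and squares the replicates, and the dashed line the whole of 3R (17.6%). The share declines from 15.6% to 2.87% along the Antennapedia complex, and in the bithorax complex it is 38.8% and 59.2% in the end bins and 0 in 3 bins between them.

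Most of each complex lay in long stretches with no called region. A stretch was counted as long at 20 kb or more. The Antennapedia complex had 81.2% of its sequence in such stretches in replicate 1 and 86.3% in replicate 2 (83.7% ± 3.64, SD, n = 2), and the bithorax complex 80.2% and 80.3% (80.2% ± 0.0776). The whole of 3R had 66.5% ± 0.420. The replicates differed in the Antennapedia complex because the spacing between the fifth and the sixth of its regions was 19.9 kb in one and 20.1 kb in the other. Of the windows of the same length on 3R, 89.0% had less of their sequence in long stretches than the Antennapedia complex, and 82.2% less than the bithorax complex. In replicate 1 and replicate 2 alone these were 85.4% and 91.7% for the Antennapedia complex. For the bithorax complex they were 82.8% and 81.4%. Among windows covered about as sparsely, within 1 percentage point of the complex, 27.9% had less than the Antennapedia complex (median 85.9%) and 67.7% less than the bithorax complex (median 77.0%).

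Counting sequence that neither replicate marked, 8 of 12 stretches in the Antennapedia window and 4 of 10 in the bithorax window reached 20 kb, including those that ran to a window's edge. On 3R 306 of 1108 stretches did so (27.6%). In the bithorax complex the long stretches were 3R 12482131 to 12557571 (75.4 kb), 12560899 to 12652264 (91.4 kb), 12674469 to 12757641 (83.2 kb) and 12760085 to 12806123 (46.0 kb). The combined list of both replicates placed no additional region in any of them. They ranked 73rd, 56th, 69th and 139th by length among the 1108 stretches of 3R. In the Antennapedia complex the longest within the window was 3R 2759190 to 2823775 (64.6 kb), between the last 2 regions, which ranked 89th on the arm. The others bounded by regions on both sides were 2510236 to 2566690 (56.5 kb), 2590946 to 2640120 (49.2 kb), 2676953 to 2718189 (41.2 kb), 2720210 to 2756485 (36.3 kb) and 2642821 to 2672943 (30.1 kb). The remaining 2 ran out of the window. The one at the lower edge (2450000 to 2471815) was the end of an unmarked stretch of 175 kb that began at 2296409 and ranked 13th on 3R. The one at the upper edge (2825239 to 2850000) was part of a stretch of 65.7 kb. The combined list added no region in any of these 8 either.

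Within its window, the unmarked stretches of the Antennapedia complex were many and of moderate length. The longest within each 400 kb window of 3R had a median of 107 kb, and in 17.4% of windows it was shorter than the 64.6 kb of this complex. The windows covered about as sparsely as this complex, none touching either complex, numbered 1310 in 15 separate stretches of the arm. Their longest unmarked stretch ranged from 89.1 to 334 kb with a median of 141 kb, so it was longer than that of the complex in all 1310. This depends on the edges of the window, since the lower edge cut the stretch of 175 kb to 21.8 kb. Windows shifted over the complex are among all the 400 kb windows above, but their longest stretches were not read singly. The equally covered windows had a median of 8.5 regions against the 11 of the complex, and 90.5% of them had fewer. The bithorax complex was closer to the windows covered like it (2477 windows in 23 stretches). Its longest unmarked stretch of 91.5 kb exceeded that of 10.7% of them, and its 10 regions compared with a median of 11. All comparisons with equally covered windows were added after seeing the data.

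**Figure D3:**
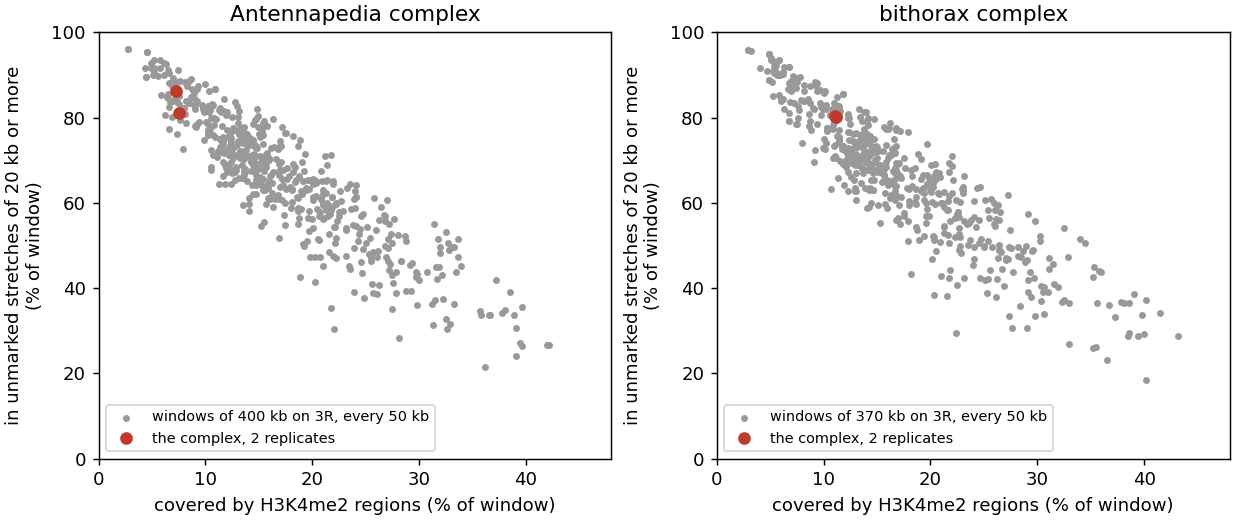
Covered share (x axis, % of window) against the share of the window lying in unmarked stretches of 20 kb or more (y axis), for windows of 400 kb (left) and 370 kb (right) on 3R, drawn every 50 kb as the mean of 2 replicates (grey). Red points are the 2 replicates of each complex, at 7.50% and 7.26% covered on the left and at 11.2% and 11.1%, nearly superimposed, on the right. Of the windows on 3R, 7.27% are less covered than the Antennapedia complex and 20.4% less covered than the bithorax complex.

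Few regions of either complex scored above the median of their list, and those of the Antennapedia complex were short, whereas lengths in the bithorax complex were nearer to those of the arm. The median length in the Antennapedia complex was 2575 and 2340 bp (replicates 1 and 2), against 3468 and 3414 bp for the 1088 and 1064 regions of 3R outside both windows. It was 3178 and 2930 bp in the bithorax complex. Of 400 kb windows, 5.35% had a lower median length than the Antennapedia complex in replicate 1, 0.982% in replicate 2 and 1.09% by the mean of both. Of 370 kb windows, 32.1% had a lower one than the bithorax complex by that mean, and of those covered about as sparsely 46.1%. In replicate 1 alone 36.7% of 370 kb windows were lower, and in replicate 2 alone 27.9%. In the Antennapedia complex 1 of 11 regions was 5 kb or longer in each replicate, and in the bithorax complex 2 of 10. Of all regions on 3R, 28% were that long in replicate 1 and 27.2% in replicate 2. The 2 broad regions held 48.1% ± 0.679 of the marked sequence of the bithorax window (SD, n = 2), near the 51.6% ± 0.657 held by such regions on the whole arm.

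Scores above the median of the whole list were given to 2 of 11 regions of the Antennapedia complex in replicate 1 (18.2%, exact 95% interval 2.28 to 51.8) and to 1 of 11 in replicate 2 (9.09%, 0.230 to 41.3). In the bithorax complex it was 2 of 10 in each replicate (20.0%, 2.52 to 55.6), but not the same 2. Only the region of 10.3 kb passed in both. The other was 3R 12465154 to 12468235 in replicate 1 (1.60, against 1.41 in replicate 2). In replicate 2 it was 3R 12450166 to 12453542 (1.45, against 1.48 in replicate 1). Of all regions on 3R, 51.1% scored above the median of the whole list in replicate 1 and 50.2% in replicate 2. The intervals cover counting error only and take the regions as independent, which neighbours are not, so they are no test against the arm. The difference between the replicates in the Antennapedia complex rests on 1 region, the first of the complex. Among windows of the same length on 3R, 2.60% had a lower share than the Antennapedia complex in replicate 1, 0.353% in replicate 2 and 0.723% by the mean of both. For the bithorax complex 3.80% were lower in replicate 1, 4.70% in replicate 2 and 4.54% by the mean. In the combined list 40.0% of the bithorax regions scored above that list's median.

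Longer regions score higher in these lists, so each member was also set among the 3R regions within 20% of its own length, a comparison added after seeing the data. In the Antennapedia complex 9 of 11 regions scored below the median of those regions in each replicate, and they were the same 9. On 3R the share below was 50.1% in replicate 1 and 50.3% in replicate 2, near 50% by construction. The exceptions were the first 2 regions, at the lower-coordinate end. The eighth, 3R 2673001 to 2676952, stood lowest, with 2.30% of 261 such regions scoring lower in replicate 1 and 1.61% of 248 in replicate 2. In the bithorax complex 6 of 10 were below in replicate 1 and 7 of 10 in replicate 2, of which 5 were below in both. Its region of 14.3 kb was among them, with 5.26% of 38 scoring lower in replicate 1 and 6.90% of 29 in replicate 2. The region of 10.3 kb was not, with 61.8% and 50.0% of 76 lower. The exact 95% intervals of the shares below were 48.2% to 97.7% in the Antennapedia complex in each replicate. In the bithorax complex they were 26.2% to 87.8% in replicate 1 and 34.8% to 93.3% in replicate 2. These intervals are wide and take neighbouring regions as independent, which they are not, so they are no test against 50%. With lengths within 10% instead, the mean count below over the replicates was 7.5 in the Antennapedia complex and 6 in the bithorax complex.

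**Figure D4:**
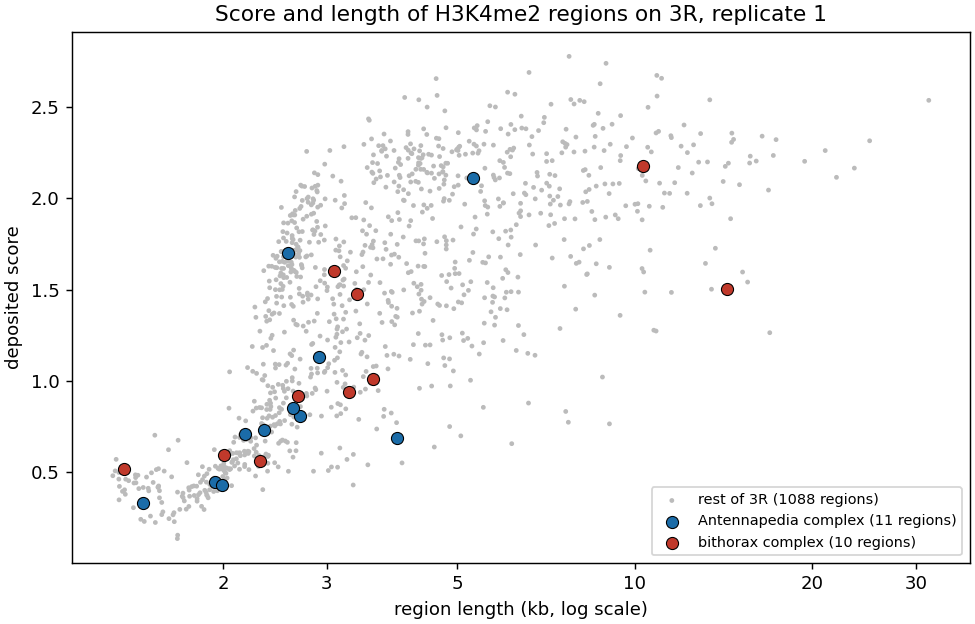
Deposited score against region length (kb, log scale) for the 1109 regions of 3R in replicate 1. Blue points are the 11 regions of the Antennapedia complex, red points the 10 of the bithorax complex, and grey points the other 1088. Most members lie at short lengths and low scores, and the eighth region of the Antennapedia complex (3.95 kb, 0.69) and the 14.3 kb region of the bithorax complex (1.50) lie low for their length.

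The sparse pattern was the same in both replicates. All 11 regions of the Antennapedia complex and all 10 of the bithorax complex in replicate 1 overlapped exactly one region of replicate 2, and the reverse held as well. On 3R 95.7% of regions in replicate 1 and 97.9% in replicate 2 had a counterpart, so the members' share is near that of the arm. The exact 95% intervals of the members' shares reach down to 71.5% and 69.2%. Of the sequence marked in either replicate, 94.3% was marked in both in the Antennapedia complex and 93.5% in the bithorax complex, against 91.8% on 3R. Between replicates the edges of the 21 pairs moved by 70.5 bp in the median and by at most 505 bp, and those of the 993 one-to-one pairs on 3R by a median of 60.5 bp. The median was 57 bp in the Antennapedia complex and 126 bp in the bithorax complex, the latter above that of the arm. The largest difference among the 21 pairs was at the start of 3R 12557572 to 12560846. The score was higher in replicate 1 for 15 of the 21 pairs and for 855 of the 993 on the arm. Scores on the whole arm also ran higher in that list, with a median of 1.58 against 1.43 in replicate 2.

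The combined list also had 11 and 10 regions in the windows, each over one of those above. It covered 7.80% of the Antennapedia complex and 11.7% of the bithorax complex, against 19.1% of 3R. Its score was highest in the same regions, 1.94 for 3R 2481299 to 2486624 and 2.01 for 3R 12468602 to 12478943, and it has no error, being a single pooled value.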

How the data were processed

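The data were 3 lists of enriched regions in GFF3 format, 1 for each H3K4me2 immunoprecipitate and 1 for the combined replicates. They use FlyBase release 5 coordinates, per the file headers. The submitters' processing notes name Bowtie 0.12.7, a read aligner. Each region carries a deposited score whose scale and log base are not stated. Scores were therefore compared mainly within a list. Across the lists of the replicates, pairs scoring higher in replicate 1 were counted, and arm medians and scores of single regions were set side by side. The rule for regions named singly used the mean score of both replicates. The region caller, its threshold and length limits, and the way the authors combined the replicates are not given in the sources used. Inputs enter only through the calls. Alignability was not measured.

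The members, the windows and the lists of regions were chosen with earlier results of these data known. Depleted regions were left out. Coordinates were read from 1 with both ends included. Covered shares and unmarked stretches were clipped to the window, and lengths were those of the whole region. Windows of the same length were started every 1 kb along 3R. Regions sharing at least 1 bp were called counterparts. The rule for regions named singly took the 5 longest and the 5 highest-scoring of each complex, those without a counterpart (none was found) and unmarked stretches of 20 kb or more. The other members are given because all could be. No p-values were computed. The interval code matched a per-base count on 50 simulated lists. Computations used Python 3.11.15, numpy 2.4.6, pandas 2.3.3, scipy 1.17.1 and matplotlib 3.10.9.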

Additional observations from a re-analysis of the deposited data

How the results depend on the processing

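Leaving out either replicate moved none of the 16 results recomputed that way beyond the spread of 1 SD (for counts 1.5 times). A mean of 2 values meets the limit of 1 SD by construction, so for results that are such means this tells little. The window percentages for covered share are not such means. Other window percentages did change without a replicate. In the Antennapedia complex that for median length went from 1.09% to between 0.982% and 5.35%. That for scores above the list's median went from 0.723% to between 0.353% and 2.60%. Its percentage for long stretches went from 89.0% to between 85.4% and 91.7%, and for the longest stretch from 17.4% to between 15.7% and 17.5%. In the bithorax complex that for median length went from 32.1% to between 27.9% and 36.7%. Of 50 other alternatives, 19 stayed within that spread (for region counts within 1.5 times, for shared sequence within its binomial interval) and 31 did not. With only regions scoring above their list's median, the Antennapedia complex had 1.65% covered (2.31% of windows lower), 97.5% in long unmarked stretches, a longest stretch of 363 kb and 66.5% of marked sequence shared. The bithorax complex had 3.63% (10.1% lower), 92.2%, 341 kb and 62.4%. The arm had 11.6% covered and 82.0% in long stretches under that limit. With windows trimmed by 25 kb at each end, the Antennapedia complex had 7.65% covered (10.2% lower), and the bithorax complex 5.22% (3.76% lower), 89.3% in long stretches and 89.5% shared. In the combined list the values were 7.80% covered (6.70% lower) and a longest stretch of 64.5 kb in the Antennapedia complex. In the bithorax complex they were 11.7% (18.5% lower), 90.9 kb, 79.9% in long stretches and 40.0% of regions above the list's median score, against 20.0% in the replicates. Joining regions under 500 bp apart gave 94.0% shared in the bithorax complex. Among separate tiles, 8.70% were lower than the Antennapedia complex and 17.3% lower than the bithorax complex, and among windows of all 5 long arms 11.8% and 25.2%. With a limit of 10 kb, added after seeing the data, 90.3% and 88.1% lay in long stretches, against 74.3% of 3R. Counts of members scoring below regions of their length stayed within 1.5 times at every setting tried, all added after seeing the data. With lengths within 10%, that of the Antennapedia complex still fell from 9 to 7.5, the mean over the replicates. Leaving out a replicate gave ranges of 7.26% to 7.50% and 11.1% to 11.2% covered. No paired analysis was possible because values of the input samples were not analysed here. Depth is unknown, and its part in the calls was not assessed.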
